A study of Mus musculus with 6 samples.

Results

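The cells described here are the primed mouse embryonic stem cells with the highest share of immediate early and ERK feedback transcripts. Within each of the 2 primed libraries, every well with at least 10000 counts from genes was scored by the summed share of Egr1, Fos, Jun, Junb, Ier2, Dusp4, Dusp6, Spry4 and Myc. The cells were then put into 4 score groups of equal size, and the top group (25% of the cells) was set against the bottom group. The top group held 60 cells (24 of 98 in line R1 and 36 of 147 in line IB10), out of 245 primed cells past the minimum, 376 primed wells and 1128 wells in the whole series. The bottom group also held 60 cells, split 24 and 36. Because the cells were chosen by these measured values, the levels of the 9 score genes along this ranking are a description, and all 9 were left out of the comparison of the groups.

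RNA of single cells was counted by SORT-seq, a plate form of CEL-Seq2, which tags each molecule at its 3' end with a molecular identifier (UMI), in R1 and IB10, 2 established mouse embryonic stem cell lines. Each line gave 1 library per condition, so each condition has 2 libraries and a line is also the replicate. The primed_4d cells had LIF, 12 ng/ml FGF2, 20 ng/ml human Activin A and 2 µM IWP2 (an inhibitor of WNT secretion) for 4 days, at passage 24 (R1) and 28 (IB10). They were compared with LIF_2i cells (LIF, 3 µM CHIR99021, a GSK3 inhibitor, and 0.1 µM PD325901, a MEK inhibitor; passages 24 and 28) and with rosette_LIM cells (LIF with 2 µM IWP2 plus PD325901 at 0.1 µM, kept 6 passages for R1 and 5 for IB10; passages 28 and 33). All 6 cultures shared serum-free N2B27 medium with LIF on coated plastic, and the primed cultures differed from both others in having FGF2 and Activin A and no MEK inhibitor.

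FGF binds receptor tyrosine kinases that signal through RAS, RAF, MEK and ERK. Active ERK switches on immediate early genes within minutes without new protein synthesis, among them the transcription factors Egr1, Fos, Jun and Junb, and then genes such as the phosphatases Dusp4 and Dusp6 and the Sprouty proteins, which damp the same pathway. In mouse pluripotent cells, FGF and ERK signalling drives exit from the naive state, and MEK inhibitors are used to hold cells in it.

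Summed scores in the top group had a median of 0.0623% of a cell's counts in R1 and 0.0584% in IB10, against 0.0193% and 0.0147% in the bottom group. The cut fell within a continuous range: in R1 the lowest cell inside the top group had 0.0474% and the next one outside 0.0468%, and in IB10 these were 0.05002% and 0.0488%. These shares rest on few molecules. A top-group cell held a median of 30.0 score UMIs in R1 and 17.0 in IB10, and a bottom-group cell 8.5 and 4.5. Over all cells of a library the median score was 0.0331% and 0.0347% in primed_4d (R1, IB10), 0.0191% and 0.0154% in rosette_LIM, and 0.0186% and 0.0175% in LIF_2i.

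**Figure D1:**
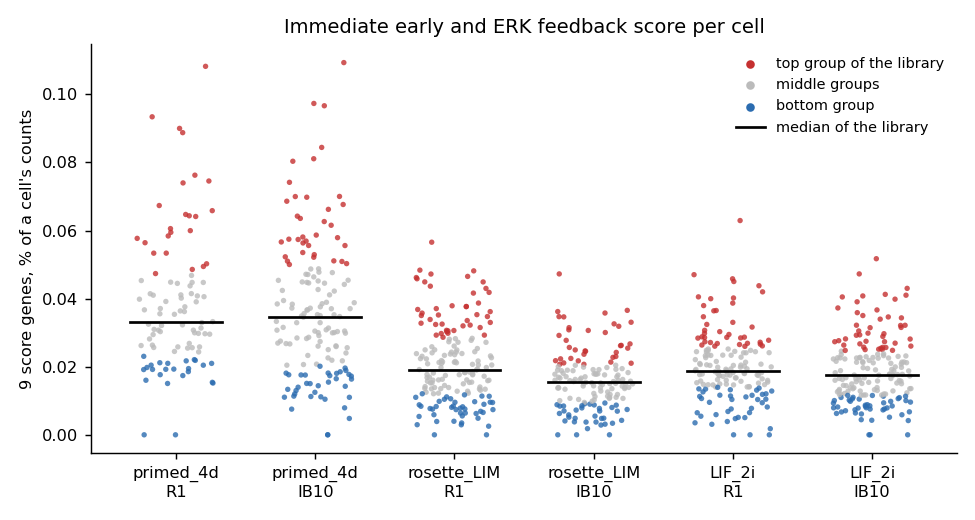
Each point is 1 cell past the minimum of 10000 counts; the y axis is the share of its counts in the 9 score genes (percent), the x axis the library, and the bar the library's median. The 2 primed libraries have medians of 0.0331% and 0.0347% and the other 4 lie between 0.0154% and 0.0191%.

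With cells drawn down to 10000 counts, the variance of score UMIs over their mean was higher in the primed libraries than in the others. The variance over the mean was 2.13 in R1 and 1.88 in IB10, against 1.19 and 1.13 in rosette_LIM and 1.40 and 1.32 in LIF_2i; a value of 1 is what counting alone gives. The mean was also higher, at 3.58 and 3.72 score UMIs in primed_4d (R1, IB10), against 2.12 and 1.61 in rosette_LIM and 2.01 and 1.93 in LIF_2i. Variance over the mean rises with the mean where relative spread is equal. The ratio alone thus does not measure relative spread, which was not compared between conditions. No test of these differences between conditions was run.

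Egr1, Dusp6 and Spry4, the genes taken to mark these cells, are all score genes, so they describe the choice and do not test it. In raw CPM (counts per 1000000 counts summed over the cells), Egr1 stood at 8.68 in the bottom and 58.6 in the top group of R1, and at 10.4 and 55.0 in IB10. Dusp6 went from 27.0 to 89.5 in R1 and from 22.4 to 117 in IB10, and Spry4 from 8.68 to 64.4 and from 12.0 to 89.0. Ier2, an immediate early gene of little-known function, supplied the largest part of the score, 43.3% of all score counts in R1 and 34.1% in IB10. Fos gave 9 counts in all 98 cells of R1 and 11 in all 147 of IB10, so the ranking hardly used it.

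In both libraries the wells of the 2 groups differed in more than the score. The median total count was 55590 in the top against 44710 in the bottom group of R1, but 27090 against 33710 in IB10, so depth differed in opposite directions. In IB10 the median well number was 131.5 in the top and 86.0 in the bottom group (97.5 and 83.5 in R1), and 23 of the 36 top cells lay past the library's median well of 90. The G2/M share had medians of 0.324% against 0.326% in R1 and 0.359% against 0.323% in IB10. Each library has well numbers 1 to 192 less the 4 empty wells, so the 188 well names of R1 and IB10 are shared by design, and no 2 columns held identical values.

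Core pluripotency genes were present in both groups at similar levels: the 12 genes summed to 5286 raw CPM in the bottom and 5753 in the top group of R1, and to 5706 and 5843 in IB10. Markers of other cells were sparse. Primitive endoderm genes summed to between 4.80 and 13.5 raw CPM in the bottom and 9.17 and 13.4 in the top groups (Sox17 at 0), and mesendoderm genes to 14.4 to 27.98 and 17.6 to 18.3 (T and Wnt3a at 0). Trophectoderm genes summed to 26.4 to 41.5 and 32.1 to 43.5 (Elf5 at 0), neuroectoderm genes to 75.2 to 134 and 77.9 to 166, and feeder fibroblast genes to 127 to 174 and 161 to 203, mostly Vim, which stem cells also express (Col3a1 at 0).

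Among the R1 cells, 2 wells stood apart. Well 135, in the top group, had 20360 counts and held 3662 raw CPM of 2-cell-like genes, against a median of 0 in the other wells, together with most of the counts for Dcdc2c (91.7% of those in the top and bottom groups) and Gm8994 (87.8%). Well 55, in the bottom group, had 16620 counts, no score UMI, and 46.8% of its counts in Kcnq1ot1, Gm17821, A630089N07Rik, Grk4 and A130077B15Rik, where the median well had 0.227%. These 2 wells were picked after the values of the called genes had been seen. The values below include them unless stated otherwise. Values without them are given beside the main counts of called genes and the results they moved.

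The first question was whether one set of score genes followed the other, which the ranking does not force. Cells were ranked by Egr1, Fos, Jun, Junb and Ier2 alone, and Dusp4, Dusp6, Spry4 and Myc were then measured, and the reverse. Spry4, a feedback inhibitor of receptor tyrosine kinase signalling, rose with the immediate early genes and was the only score gene past the threshold. In CPM scaled by edgeR's TMM factors, as in all tests from here on, it had 19.8 CPM (21 counts) in the bottom and 63.3 CPM (71 counts) in the top group of R1, and 25.6 CPM (31 counts) and 70.9 CPM (78 counts) in IB10. Both top values were more than double both bottom values, so the values did not overlap. The log2 fold change was 1.56 ± 0.24 (SE; n = 2 libraries; edgeR quasi-likelihood test, adjusted p = 0.000539), the smallest p of the rising genes, where 0.0545% of 9168 genes were called higher.

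The other score genes did not pass this test. Myc, a transcription factor of growth control, had 38.6 and 56.2 CPM in the bottom and top group of R1 and 31.4 and 61.8 CPM in IB10, with a log2 difference of 0.77 ± 0.24 (edgeR, adjusted p = 0.427). The ERK phosphatase Dusp6 had 49.9 and 68.6 CPM in R1 but 67.7 and 60.0 CPM in IB10, so the lines went in opposite directions, with a log2 difference of 0.14 ± 0.21. Dusp4 differed by 0.17 ± 0.28. In the reverse ranking, where 0.0970% of 9275 genes were called higher, Ier2 had 142 and 213 CPM in R1 and 92.6 and 141 CPM in IB10, a log2 difference of 0.61 ± 0.15 (edgeR, adjusted p = 0.0772). Its top values were above the bottom value of the same line, and the IB10 top value was level with the R1 bottom value.

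Egr1 differed mostly in R1, with 18.9 and 54.7 CPM there and 25.3 and 29.0 CPM in IB10 (log2 difference 0.91 ± 0.33, edgeR, adjusted p = 0.616). Junb had 16.5 and 24.8 CPM in R1 and 8.42 and 20.8 CPM in IB10 (0.92 ± 0.41). Jun lay the other way, at 17.7 and 8.55 CPM in R1 and 10.1 and 9.06 CPM in IB10 (-0.65 ± 0.50, edgeR, adjusted p = 0.952), and Fos was too low to test. Across single cells, the score of 5 immediate early genes and that of the other 4 genes had a Pearson r of 0.203 in R1 (98 cells) and 0.183 in IB10 (147 cells). With cells drawn down to 10000 counts r was 0.129 and 0.0990; these cells share a library, and both scores are shares of the same total.

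**Figure D2:**
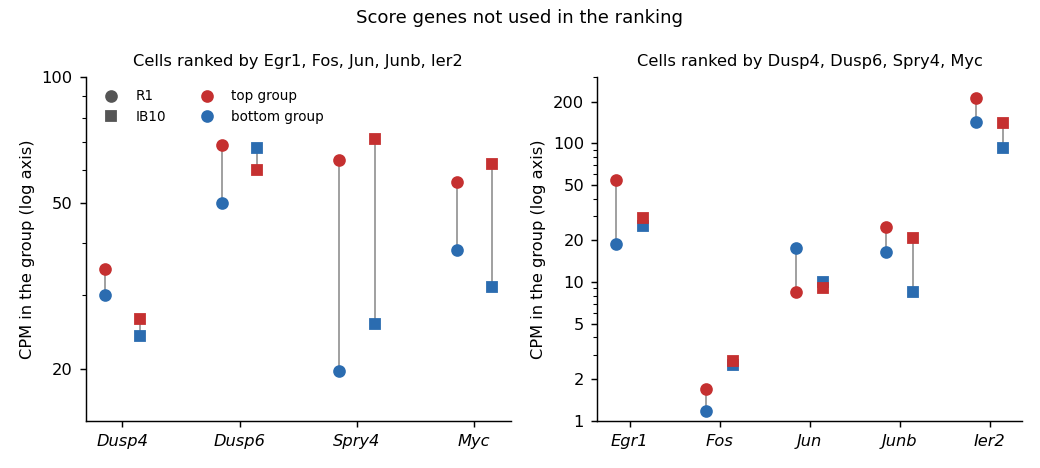
Each pair of points is 1 score gene in 1 line, with its CPM (log axis) summed over the bottom and top group of cells ranked by the other set of score genes. Spry4 is the only gene past the threshold, at 19.8 and 63.3 CPM in R1 and 25.6 and 70.9 CPM in IB10.

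Spry4 kept its direction in all 21 alternatives run for it, with log2 values from 1.13 to 1.69, and was past the threshold in 15. Without the 2 R1 wells it was 1.57 (edgeR, adjusted p = 0.000543). No other score gene passed without the wells: Myc was then at 0.82 and Ier2 at 0.61 (edgeR, adjusted p = 0.322 and 0.0602), Egr1 at 0.91 and Junb at 1.05 (0.603 and 0.686), and Dusp6 at 0.30 and Dusp4 at 0.26 (0.914 and 0.949). Spry4 lost the call in 6 alternatives, among them DESeq2 (adjusted p = 0.184) and the fit without cell line as a term (edgeR, adjusted p = 0.740). With cells thinned to 10000 counts its log2 value was 1.14 (edgeR, adjusted p = 0.9945). With only the top and bottom groups in the fit it was 1.555 (edgeR, adjusted p = 0.263). The 6 also included the fit without the R1 library (log2 1.46). Leaving out wells above 2 times the median of every well (1.605) was among them too.

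Beyond the score genes, few transcripts separated the groups. Counts were summed over the cells of each score group, and the top was tested against the bottom group with cell line as a term. Of 9290 genes tested, 12 rose and 15 fell, which is 0.291% of the genes tested (0.129% rose and 0.161% fell). At an unadjusted p under 0.05, 302 were higher and 260 lower (3.25% and 2.80%). Without the 2 R1 wells, 6 rose and 4 fell, 0.108% of 9256, and all 10 were also called with them. The 6 were Rhox5, Enc1, F2rl1, Degs1, Car2 and Sc4mol, and the 4 were Lefty1, Fn1, Pnma5 and Mir5109. Without the wells their log2 values were 1.29 (Rhox5), 0.92 (Enc1), 1.11 (F2rl1), 0.78 (Degs1), 0.52 (Car2), 0.49 (Sc4mol), -0.73 (Lefty1), -0.76 (Fn1), -1.03 (Pnma5) and -0.49 (Mir5109). The choice of score genes mattered for these 10. Ranked by the 5 immediate early genes alone, Mir5109 passed, at -0.79, and the other 9 did not, with log2 values of 0.49 (Rhox5), 0.39 (Enc1), 0.85 (F2rl1), 0.42 (Degs1), 0.19 (Car2), 0.17 (Sc4mol), -0.028 (Lefty1), -0.29 (Fn1) and -0.63 (Pnma5). Ranked by Dusp4, Dusp6, Spry4 and Myc alone, Rhox5 (1.16), Enc1 (0.95) and Lefty1 (-0.92) passed and the other 7 did not. With the score groups drawn separately for shallow and deep cells, 13 rose and 14 fell, and drawn separately for low and high well numbers, 5 rose and 6 fell. DESeq2 called 1 gene in each direction (Rhox5 and Mir5109), and without cell line as a term no gene passed, with 247 at an unadjusted p under 0.05.

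**Figure D3:**
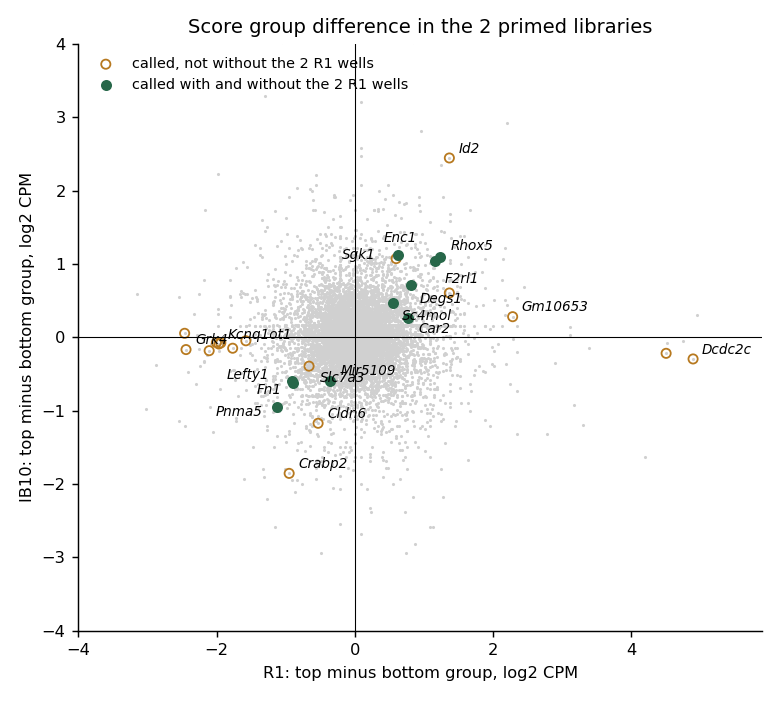
Each point is 1 gene, with its log2 CPM difference between the top and bottom group in R1 (x axis) and in IB10 (y axis). Filled points are the 10 genes called with and without the 2 R1 wells, which lie in the same direction in both lines; open points are the other 17 called genes, several of which lie near 0 in IB10.

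The genes that fell in the top group included an inhibitor and a matrix protein. Lefty1, a secreted antagonist of Nodal that is itself switched on by Nodal and Activin signalling (chromosome 1, 180935022 to 180938400, plus strand), stood at 1034, 826, 1017 and 551 CPM from the lowest to the highest score group of R1. In IB10 it stood at 1004, 746, 625 and 664 CPM. The top group was below the bottom group in both lines, and the groups between followed no common order. The log2 fold change was -0.74 ± 0.12 (SE, n = 2 libraries; edgeR, adjusted p = 0.00113), and -0.73 without the 2 wells (edgeR, adjusted p = 0.000625). It passed in 13 of 23 alternatives. Among those where it did not, it was -0.028 in cells ranked by the 5 immediate early genes (edgeR, adjusted p = 0.987), -0.46 in cells thinned to 10000 counts (0.637), -0.45 with score groups drawn separately for shallow and deep cells (0.301) and -0.52 with groups drawn separately by G2/M share (0.671). Single cells overlapped widely: in R1 the median cell had 853 raw CPM in the bottom and 311 in the top group, over ranges of 21.6 to 3685 and 0 to 1610, and in IB10 the medians were 690 and 275.

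Fn1, which encodes fibronectin (chromosome 1, 71585520 to 71653200, minus strand), had 175, 140, 206 and 94.2 CPM over the groups of R1 and 278, 237, 234 and 181 CPM in IB10. It was lowest in the top group of both lines, with a log2 fold change of -0.74 ± 0.14 (edgeR, adjusted p = 0.00713), and IB10's top value lay above R1's bottom value. Pnma5, of the paraneoplastic antigen family (X chromosome, 73033981 to 73037103, minus strand), had 64.9 CPM (66 counts) in the bottom and 29.4 CPM (35 counts) in the top group of R1, and 94.4 CPM (115 counts) and 48.8 CPM (53 counts) in IB10. Its log2 fold change was -1.03 ± 0.22 (edgeR, adjusted p = 0.0180). Mir5109, outside the rule for named genes and given because it was called with and without the wells, had 2500 and 1946 CPM in R1 and 1752 and 1163 CPM in IB10 (log2 -0.48 ± 0.08; edgeR, adjusted p = 0.00122).

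Cldn6, Crabp2 and Slc7a3 fell with the 2 wells in the data. Without the wells their log2 values were similar, at -0.73, -1.30 and -0.51, and did not pass the threshold. Cldn6, a claudin of tight junctions, had 123 and 84.9 CPM in the bottom and top group of R1 and 100 and 44.2 CPM in IB10 (log2 -0.80 ± 0.18; edgeR, adjusted p = 0.0288, and 0.103 without the wells). Crabp2, a retinoic acid binding protein, had 44.2 and 22.7 CPM in R1 and 37.8 and 10.1 CPM in IB10 (-1.33 ± 0.31; edgeR, adjusted p = 0.0425, and 0.0730 without). Slc7a3, a cationic amino acid transporter named after its values were seen, had 274 and 173 CPM in R1 and 237 and 181 CPM in IB10 (-0.53 ± 0.12; edgeR, adjusted p = 0.0376, and 0.0849 without). For each of the 3 genes both top values lay below both bottom values. Cldn6 passed in 6 of 23 alternatives, Crabp2 in 5 of 22 and Slc7a3 in 10 of 23.

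Rhox5, an X-linked homeobox gene (37804842 to 37808876, plus strand), had the smallest p of all genes tested after Dcdc2c, and the smallest of all without the 2 wells (edgeR, adjusted p = 3.66e-06). It had 54.1 CPM (55 counts) in the bottom and 128 CPM (152 counts) in the top group of R1, and 86.2 CPM (105 counts) and 184 CPM (200 counts) in IB10, so the values did not overlap. The log2 fold change was 1.14 ± 0.16 (SE, n = 2 libraries; edgeR, adjusted p = 0.000111). The rise was not a steady one: score group 2 held 161 CPM in R1 and 210 CPM in IB10, more than the top group in both lines, and group 3 held 76.7 and 77.9 CPM. The median cell did not follow the sums. It had 28.7 and 32.97 raw CPM in the bottom and top group of R1 and 52.8 and 37.8 in IB10. The highest cell had 371.5 raw CPM in the bottom and 957 in the top group of R1, and 1256 and 1173 in IB10. A single R1 well held 15.6% of the counts in the top and bottom groups. With cells thinned to 10000 counts before ranking, the log2 difference was -0.073 (edgeR, adjusted p = 0.994).

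Enc1, an actin-binding protein of the kelch family (chromosome 13, 97241105 to 97253034, plus strand), had 69.8, 87.6, 97.5 and 108 CPM from the lowest to the highest group of R1 and 55.0, 111, 104 and 121 CPM in IB10. Both top values were above both bottom values, with a log2 fold change of 0.88 ± 0.18 (edgeR, adjusted p = 0.0101). F2rl1, a receptor cleaved by proteases (chromosome 13, 95511732 to 95525227, minus strand), had 22.6 CPM (23 counts) and 51.3 CPM (61 counts) in the bottom and top group of R1 and 40.2 CPM (49 counts) and 82.9 CPM (90 counts) in IB10. It rose by a log2 fold change of 1.09 ± 0.23 (edgeR, adjusted p = 0.0145), again without overlap. The median cell was higher in the top group for F2rl1 in both lines, 47.4 against 8.38 raw CPM in R1 and 70.4 against 22.6 in IB10, although cells at 0 were found in both groups.

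The other genes that rose with and without the 2 wells encode enzymes. Degs1, the dihydroceramide desaturase of ceramide synthesis (chromosome 1, 182275772 to 182282804, minus strand), had 69.8 and 123 CPM in R1 and 80.4 and 133 CPM in IB10 (log2 0.76 ± 0.16; edgeR, adjusted p = 0.0180). Sc4mol, a sterol demethylase of cholesterol synthesis also called Msmo1 (chromosome 8, 64718139 to 64733792, minus strand), had 277, 348, 333 and 408 CPM over the groups of R1 and 284, 314, 364 and 392 CPM in IB10 (0.51 ± 0.11; edgeR, adjusted p = 0.0178). Car2, a carbonic anhydrase (chromosome 3, 14886273 to 14900770, plus strand), had 357 and 609 CPM in R1 and 286 and 342 CPM in IB10 (0.54 ± 0.12; edgeR, adjusted p = 0.0180). For Degs1 and Sc4mol both top values lay above both bottom values, while the Car2 top value of IB10 was below the bottom value of R1.

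Id2, an inhibitor of basic helix-loop-helix factors (chromosome 12, 25093799 to 25097140, minus strand), and Sgk1, a serum- and glucocorticoid-induced kinase (chromosome 10, 21882184 to 21999903, plus strand), rose with the 2 wells in the data. Without the wells their log2 values were similar, at 1.92 and 0.84, and did not pass the threshold. Id2 had 10.8 CPM (11 counts) and 28.6 CPM (34 counts) in the bottom and top group of R1 and 5.74 CPM (7 counts) and 33.2 CPM (36 counts) in IB10. It had the largest log2 fold change of the called genes with no well above 10% of the counts, 1.92 ± 0.44 (edgeR, adjusted p = 0.0364, and 0.0521 without the wells). Sgk1 had 60.9 and 92.5 CPM in R1 and 55.8 and 118 CPM in IB10 (0.85 ± 0.20; edgeR, adjusted p = 0.0476, and 0.0863 without). In both genes the top values exceeded both bottom values. Id2 passed in 8 of 22 alternatives and Sgk1 in 8 of 23. Ranked by the 5 immediate early genes alone, Id2 was at 0.88 and did not pass, while Sgk1 was at 0.97 and passed. Ranked by Dusp4, Dusp6, Spry4 and Myc alone, Id2 was at 0.74 and Sgk1 at 0.23, and neither passed.

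**Figure D4:**
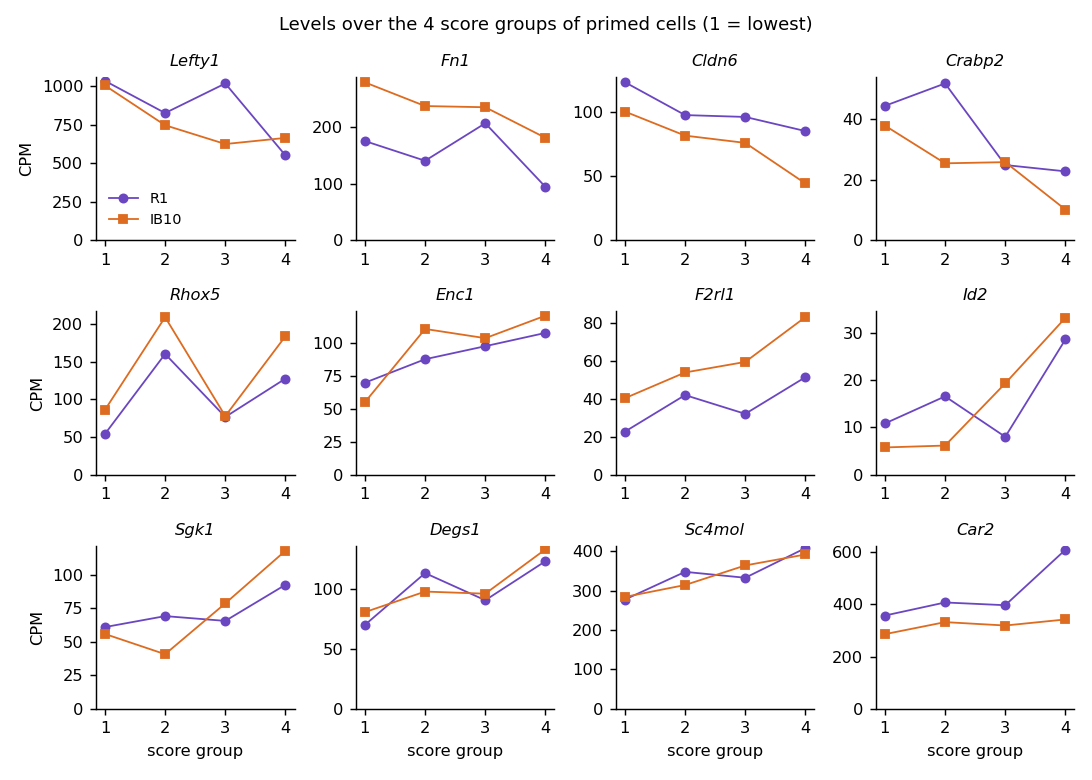
CPM of 12 called genes (y axes from 0) over the 4 score groups of primed cells (x axis, 1 is the lowest), by line. Lefty1 and Fn1 are lower and Enc1, F2rl1, Degs1 and Sc4mol higher in group 4 than in group 1 in both lines, and Rhox5 peaks in group 2 at 161 and 210 CPM.

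Other called genes followed 1 well or the other. Gm10653 had 74.7 and 366 CPM in the bottom and top group of R1, of which well 135 held 61.5% of the counts, and 28.7 and 35.0 CPM in IB10. Its log2 fold change was 1.81 ± 0.32 (edgeR, adjusted p = 0.00257) with the wells and -0.0011 without them. Wdr92 was 1.05 with and 0.37 without. Kcnq1ot1, a nuclear antisense RNA, had 4387 and 1122 CPM in R1 and 1829 and 1718 CPM in IB10, a log2 fold change of -1.16 with the wells and -0.24 without (edgeR, adjusted p = 0.00246 and 0.509). Grk4, A630089N07Rik, Gm17821, Vmn2r55 and Gm10785 likewise had R1 log2 differences between -2.44 and -1.58 and IB10 differences between -0.18 and -0.05.

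The related genes of the pathway were then read as groups, beside all genes tested, of which 50.04% had a log2 difference above 0, 26.1% were higher and 25.6% lower in both lines, and the median was 0.00. Over all genes tested, 0.129% rose and 0.161% fell past the threshold, and 3.25% were higher and 2.80% lower at an unadjusted p under 0.05. Of 16 tested ERK feedback inhibitors and ETS targets outside the score, 0 passed the threshold, 13 had a difference above 0, 9 were higher and 3 lower in both lines, and the median log2 was 0.31. At an unadjusted p under 0.05 they numbered 4 higher and 0 lower. Spry2, a Sprouty gene among these 4, had 51.1 and 81.6 CPM in R1 and 43.5 and 82.0 CPM in IB10, with top values above both bottom values and a log2 difference of 0.80 ± 0.20 (edgeR, adjusted p = 0.0861). Members of this list outside these 4 included Spry1, at 0.29 ± 0.28, and Etv5, at 0.0095 ± 0.12. Il17rd, a membrane inhibitor of FGF signalling, had 14.7 and 31.1 CPM in R1 and 18.9 and 35.0 CPM in IB10 (0.97 ± 0.30; edgeR, adjusted p = 0.387).

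Of 27 tested immediate early genes outside the score, 1 rose (Sgk1) and 0 fell, with 4 higher and 1 lower at an unadjusted p under 0.05. In this list 19 had a difference above 0, 15 were higher and 6 lower in both lines, and the median was 0.32. Gadd45g, a stress-response gene in this group, lay the other way, at 27.5 and 18.5 CPM in R1 and 70.6 and 21.2 CPM in IB10 (log2 -1.32 ± 0.31; edgeR, adjusted p = 0.0542). Without the 2 wells the medians were 0.30 for this list and 0.31 for the ERK list, and neither had a called member. Of 24 FGF ligands, receptors and cascade members, 0 passed (2 higher and 1 lower at an unadjusted p under 0.05), and the median was -0.05.

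In the BMP and ID list 1 of 8 rose (Id2) and 0 fell, with a median of 0.50, in genes mostly under 30 CPM; without the 2 wells 0 passed and the median was 0.37. In the list of Nodal and Activin targets 1 of 13 fell (Lefty1) and 0 rose, and the median was 0.00. Lefty2, which like Nodal is given here for comparison after its values were seen, had 167 and 238 CPM in R1 and 217 and 237 CPM in IB10 (log2 0.31, edgeR, adjusted p = 0.760), opposite in sign to Lefty1. Nodal had 102 and 115 CPM in R1 and 76.3 and 67.3 CPM in IB10, and Tdgf1, a Nodal co-receptor, had 517 and 731 CPM in R1 and 606 and 640 CPM in IB10 (0.29 ± 0.10; edgeR, adjusted p = 0.504).

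Pluripotency lists held no called gene: 0 of 19 naive genes (median -0.16, and -0.28 without the 2 wells), 0 of 23 formative and primed genes (0.09) and 0 of 12 core genes (-0.04) in edgeR's test, and 0 in DESeq2. At an unadjusted p under 0.05 there were 2 higher and 2 lower naive genes, 4 and 3 formative and primed genes, and 2 and 0 core genes. Among formative and primed genes, Hes6 had 54.1 and 97.5 CPM in R1 and 62.4 and 93.1 CPM in IB10 (log2 0.71 ± 0.18; edgeR, adjusted p = 0.102). Fgf15 had 50.1 and 30.3 CPM in R1 and 46.8 and 15.7 CPM in IB10 (-1.10 ± 0.28; edgeR, adjusted p = 0.104). Among naive genes, Nr0b1, an X-linked nuclear receptor, had 46.2 and 31.1 CPM in R1 and 104 and 56.2 CPM in IB10 (-0.78 ± 0.22; edgeR, adjusted p = 0.198).

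A single gene also passed in each of 4 other lists: Sc4mol of 18 cholesterol synthesis genes (median 0.05), Cldn6 of 17 epithelial genes (0.00), Fn1 of 14 basement membrane and integrin genes (0.02) and Kcnq1ot1 of 6 nuclear-retained RNAs (-0.03). Without the 2 wells Sc4mol and Fn1 passed and Cldn6 and Kcnq1ot1 did not. The 13 mitochondrially encoded genes had no call, but 11 were lower in both lines, as were 25.6% of all genes tested, with a median of -0.12. In R1 these genes summed to 66490 raw CPM in the bottom and 65470 in the top group. In IB10 they summed to 72340 and 65600, so the sum fell mostly in IB10. At an unadjusted p under 0.05, 3 of them were lower, and 7 without the 2 R1 wells (median -0.15). No gene passed among S phase (17 tested, median -0.05), G2/M (20, -0.06), G1 regulators (14, -0.01), p53 targets (16, 0.09), BCL2 family (13, 0.21), WNT targets (8, -0.02) and LIF and STAT3 targets (11, 0.02). The same held for chaperones (16, -0.05), ATF4 and unfolded protein genes (19, 0.07), MYC targets (27, -0.04), translation factors (15, 0.01), ribosomal proteins (74, -0.01), glycolysis (16, 0.02) and nuclear oxidative phosphorylation (17, -0.01). It held too for SRF and YAP targets (13, 0.25), DNA methylation (9, 0.02), NF-kB targets (5, -0.41), neuroectoderm (4, 0.20), trophectoderm (3, 0.12), fibroblast (2, 0.40) and 2-cell-like genes (1, 2.35). With the 2 wells in the data, each of these lists had at most 3 genes at an unadjusted p under 0.05 in either direction in edgeR's test. No mesendoderm or primitive endoderm gene was high enough to test.

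The last question was whether ranking by the same rule separates the same genes when MEK is inhibited. In each of the 6 libraries, cells were put into score groups by the same rule, and the primed difference was set against the mean of the LIF_2i and rosette_LIM differences in 1 fit. Of 10462 genes tested, 14 differed (0.134%), and 3 without the 2 wells: Rhox5, Nr0b1 and Slc7a3. Within that fit, 31 genes passed in primed_4d (0.296%), 16 in rosette_LIM (0.153%) and 1 in LIF_2i (0.00956%). The 31 included all 27 genes called in the primed libraries alone, of which 10 were called without the 2 R1 wells. The 31 were not recounted without the wells. The score ranks the MEK-inhibited cells on 2 to 12 UMIs a cell at the group medians, so the ranking is coarser there. It also rests more on 1 gene. Ier2 gave 73.9% and 73.5% of score counts in rosette_LIM (R1, IB10) and 75.0% and 68.1% in LIF_2i, against 43.3% and 34.1% in primed_4d. Egr1 gave 6 and 3 counts in all cells of rosette_LIM and 5 and 0 in LIF_2i. The differences between conditions below thus compare scores of unlike make-up.

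Rhox5 went opposite ways. Along the groups its log2 difference was 1.14 ± 0.19 in primed_4d and -1.13 ± 0.16 in rosette_LIM (edgeR, adjusted p = 4.08e-05), and 0.26 ± 0.17 in LIF_2i (edgeR, adjusted p = 0.941). In rosette_LIM the level was 223 raw CPM in the bottom and 116 in the top group of R1, and 242 and 99.5 in IB10, so both lines fell there while both rose in primed_4d. The difference between conditions was 1.57 ± 0.23 on the log2 scale (edgeR, adjusted p = 3.97e-05), and 1.72 without the 2 wells.

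Nr0b1 also had opposite signs, at -0.79 ± 0.21 in primed_4d (edgeR, adjusted p = 0.0917), 0.72 ± 0.14 in rosette_LIM (edgeR, adjusted p = 0.00755) and 0.33 ± 0.14 in LIF_2i. Its difference between conditions was -1.32 ± 0.23 (edgeR, adjusted p = 0.000780; -1.39 without the wells). Slc7a3 had -0.53 ± 0.12, 0.31 ± 0.13 and 0.23 ± 0.13 in primed_4d, rosette_LIM and LIF_2i, with a difference of -0.80 ± 0.15 (edgeR, adjusted p = 0.00284). The level in the top group of primed cells was 172 raw CPM in R1 and 180 in IB10, and in rosette_LIM 181 and 178, while in the bottom group it was 269 and 232 in primed_4d and 127 and 162 in rosette_LIM. In LIF_2i it was 104 and 109 in the bottom and 110 and 139 in the top group, below the primed values in both groups.

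Lefty1, Enc1, F2rl1, Id2 and Sgk1 did not pass the test of a difference between conditions. Lefty1 had -0.75 in primed_4d, -0.50 in rosette_LIM and 0.72 in LIF_2i, where it was low at 11.2 to 41.0 raw CPM, and the difference was -0.86 ± 0.21 (edgeR, adjusted p = 0.0981). The rosette_LIM lines went opposite ways for Lefty1. From the bottom to the top group it went from 182 to 93.7 raw CPM in R1 and from 104 to 110.5 in IB10. Enc1 had 0.88, 0.05 and 0.09, with a difference of 0.82 ± 0.21 (edgeR, adjusted p = 0.123), and F2rl1 had 1.09, 0.89 and 0.49 (0.40 ± 0.33; edgeR, adjusted p = 0.956). Id2 and Sgk1 had differences of 1.05 ± 0.78 and 0.66 ± 0.19 (edgeR, adjusted p = 0.923 and 0.307).

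**Figure D5:**
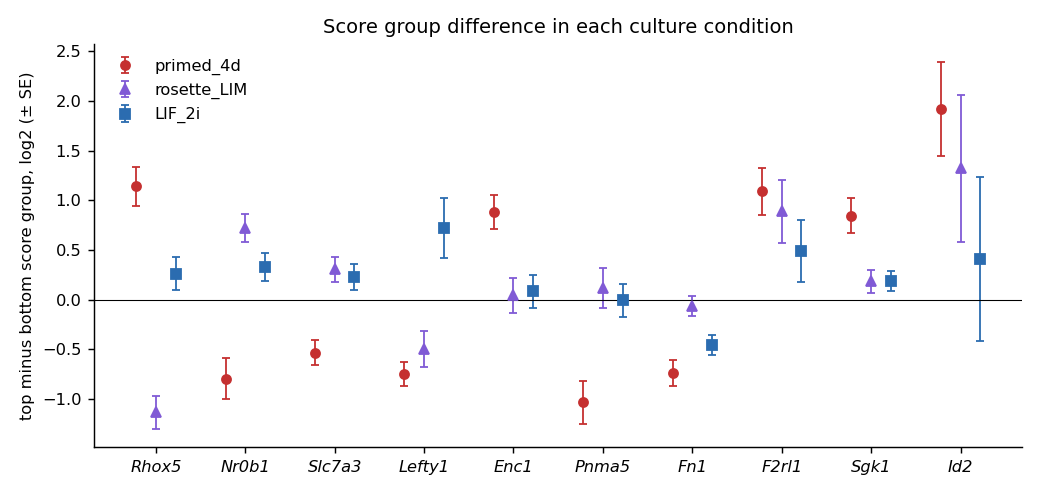
Log2 difference between the top and bottom score group (y axis, ± SE) of 10 genes in each culture condition, from the fit over all 6 libraries. Rhox5 stands at 1.14 in primed_4d and -1.13 in rosette_LIM, and F2rl1 is above 0 in all 3 conditions.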

How the data were processed

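Per the submitters' processing notes reads were aligned with BWA to mm10/GRCm38. The sources used here do not give versions or the counting annotation. The deposited values are expected counts: all 1297 distinct values equal, to 2 decimals, the authors' UMI number corrected for collisions among 4096 UMIs. The 91 ERCC rows took 1.75% of counts and were left out. Expected counts were summed per library and score group, giving 1024903 to 1375584 counts in a sum of a primed library after filtering, and rounded. edgeR 4.0.16 (R 4.3.3) used TMM factors, filterByExpr (minimum count 10), a term for cell line and Benjamini-Hochberg adjustment over all genes, two-sided, threshold 0.05, with 3 residual degrees of freedom. Pairing is by cell line, from the labels, so cell line is a block in the main fit. DESeq2 1.42.0 and limma 3.58.1 were alternatives, and the procedure was tested on simulated data. The simulated sums were drawn independently, with no outlying wells and no shared culture or plate, so that test does not cover these. The labels name no separate cultures of a line. The p-values thus reflect only how these sums vary, and the 4 sums of a library share a culture and plate. Each ± value is the size of the log2 difference over the square root of edgeR's F statistic, whose spread estimate borrows from all genes. These SEs reflect how the group sums vary in the fit and are not a spread measured over 2 libraries. With 2 libraries a group, the smallest p of an exact two-sided permutation test is 0.333, so none was run.

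Named genes are the score genes, the 12 largest rises and falls past the threshold in the same direction in both libraries at a mean of at least 10 CPM, up to 4 called members of each of 35 lists (or the 2 with the smallest p), and the 5 smallest p between conditions. The members and lists were chosen with earlier results of these data known. Positions are GRCm38, from GENCODE, by symbol. The values of 1 called gene are not reported here. A doublet caller was not run; an alternative leaves out the deepest wells.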

Additional observations from a re-analysis of the deposited data

Results flagged for a closer look

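These results differed between culture conditions or between lines. The primed group difference of Rhox5 was 1.57 above the mean of the LIF_2i and rosette_LIM differences on the log2 scale (edgeR, adjusted p = 3.97e-05), and that of Nr0b1 -1.32 (edgeR, adjusted p = 0.000780); both were also called without the 2 R1 wells. Pnma5 differed by -1.09 with the wells (edgeR, adjusted p = 0.0472) and by -1.09 without them (edgeR, adjusted p = 0.110).

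Another 7 followed the 2 R1 wells. The differences were 1.80 for Gm10653, 1.03 for Wdr92, -1.59 for Grk4, -1.27 for A630089N07Rik, -1.19 for Kcnq1ot1, -1.18 for Gm17821 and -1.17 for Vmn2r55. Without the wells they lay between -0.49 (Grk4) and 0.35 (Wdr92), and none was called.

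Zscan4c, a 2-cell-like gene, had a log2 group difference of 4.20 in R1 and -1.62 in IB10, which is 5.82 apart; the difference between lines was not tested. It had 61.4 CPM in the top group of R1 and 1.84 in that of IB10, and without well 135 it was too low to test. Genes were taken as opposite in the lines where both differences were at least 1 on the log2 scale, a limit set after the data were seen.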

How the results depend on the processing

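Results were recomputed under up to 23 alternatives, 20 of them planned and 3 added after seeing the data; genes too low to test under a setting have fewer, the ranking by one set of score genes has at most 21, and the list medians were recomputed without the 2 R1 wells only. The main counts are 12 genes higher, 15 lower, 1 score gene higher when ranked by the other score genes, and 14 differing between conditions. Of the 10 genes called with and without the 2 R1 wells, 7 (Enc1, F2rl1, Degs1, Sc4mol, Lefty1, Fn1, Pnma5) kept their direction in all 23, and Rhox5, Car2 and Mir5109 did not. Sizes moved: the value nearest 0 was -0.028 for Lefty1, -0.019 for Pnma5, 0.016 for Sc4mol, -0.29 for Fn1, 0.39 for Enc1, 0.42 for Degs1 and 0.62 for F2rl1 (log2). Enc1 passed in 15 of the 23, Lefty1, Fn1 and Degs1 in 13 each, and Rhox5 in 18.

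Pairing was by cell line, and with no replicate block the 4 counts were 0, 0, 0 and 0. DESeq2 gave 1, 1, 0 and 1, and a linear trend over the groups 1, 1, 2 and 4. With no filter on low counts they were 24, 24, 2 and 25. Fitting only the top and bottom groups gave 23 lower, 0 score genes and 22 between conditions. A minimum of 20000 counts gave 5 lower and 4 between conditions, top against bottom 33% of cells gave 5 higher and 8 lower, and cells thinned to 10000 counts gave 1, 8, 0 and 7. Score groups drawn separately below and above the median G2/M share gave 8 lower and 2 score genes, and the fit of all libraries 2 score genes. The score of 5 immediate early genes gave 3 higher. Without the 2 R1 wells the counts were 6 higher, 4 lower and 3 between conditions, and drawn separately for low and high well numbers 5, 6 and 9. Leaving out the libraries one at a time gave 4 (without R1) to 21 (without IB10) higher, 3 to 25 lower, 0 to 1 score gene and 5 to 30 between conditions; the lone library is assumed to vary like the others. The planned removal of wells above 2 times the median of every well left 15 of 98 R1 cells and gave 5 higher and 0 score genes, with Car2 at -0.082 and Mir5109 at 0.053 (log2). With the median of wells past the minimum, a change made after that result was seen, 98 R1 cells stayed and 9 genes were higher and 10 lower. RLE factors gave 12 higher and 16 lower. The cause of these shifts was not tested.

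Signs turned for Rhox5 (-0.073) and Mir5109 (0.059) in thinned cells, and for Mir5109 (0.12) with the score of Dusp4, Dusp6, Spry4 and Myc. With the score of 5 immediate early genes they turned for Gm10653 (-1.84), Wdr92 (-0.73), Zscan4c (-4.16), Dcdc2c (-4.73) and Gm8994 (-4.39), genes of well 135. A130077B15Rik turned to 0.17 at 20000 counts, 0.054 without R1 (-2.48 without IB10) and 0.15 without the 2 wells, Dcdc2c to -0.31 without R1 (4.96 without IB10), and Gm10653 to -0.0011 without the 2 wells. With a median of 4.5 to 30.0 score UMIs per cell at the ends, depth limits how well a single cell is placed in its group.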
